A study of Mus musculus with 9 samples.

Results

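The immunoglobulin constant genes and the joining chain were examined in mouse quadriceps muscle. The members were 8 named genes, the heavy chain constant genes Ighm, Ighg2b, Ighg2c and Igha, the light chain constant genes Igkc, Iglc1 and Iglc2, and the joining chain gene Jchain. Of these, 6 were among the 13116 genes of the deposited table (4 heavy chains, 1 light chain and Jchain). Iglc1 and Iglc2 were not among the rows used here and are not analysed here. The members were selected on earlier readings of this table, in which Ighm was lower in untreated knockout muscle than in wild-type muscle and Igkc had few reads beside Ighm in wild-type muscle. The difference between those groups is therefore given below as a description, without a p-value for any member. The comparisons of treated knockout muscle each use a group whose values chose the members, so their p-values for members are not independent of that choice and are given to describe the size of a difference against its spread.

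The mice were males aged 18 months. Every animal had received a tail vein injection at 9 months of age, and muscle was collected 9 months later. KO_secGAA denotes GAA knockout mice given AAV8-sp7-delta8-hGAAco, an AAV vector that encodes a secretable form of human acid alpha-glucosidase. KO_PBS denotes GAA knockout mice given PBS, and WT_PBS denotes wild-type mice given PBS, with 3 libraries in each group. All groups thus share sex, age, muscle, injection route and interval, and the knockout groups share the loss of Gaa. Strain is not given in the sources used here, and the libraries are called samples without a statement that each came from its own animal, so p-values measure the spread between these samples only. The libraries are numbered within each group for naming only.

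An antibody is built from paired heavy and light chains, each of which joins a rearranged variable segment to a constant region. B cells carry mu heavy chains at their surface. Plasma cells, which secrete antibody, transcribe heavy and light chain genes at very high levels, and class switching replaces mu by gamma or alpha in the heavy chain. The joining chain links IgM and IgA into polymers. Healthy skeletal muscle holds few B lineage cells, and in mice most light chains are of the kappa type encoded with Igkc.

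The first 61 coding bases of each constant region are shown, 61 bases being the read length of the study, because they show which chains a single read can tell apart. They come from the GENCODE M21 transcripts and are written 5′ to 3′ on the coding strand of GRCm38. In Ighg2b and Ighg1, capitals mark the bases that differ from Ighg2c. Ighg1 is not a member and is shown because it lies between Ighm and the gamma members Ighg2b and Ighg2c.
Ighm, chr12:113422670-113422730, minus strand: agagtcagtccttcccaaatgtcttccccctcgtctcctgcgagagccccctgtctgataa
Igha, chr12:113260176-113260236, minus strand: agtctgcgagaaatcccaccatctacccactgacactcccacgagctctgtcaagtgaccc
Ighg2c, chr12:113288872-113288932, minus strand: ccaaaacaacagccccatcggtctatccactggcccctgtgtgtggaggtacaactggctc
Ighg2b, chr12:113307873-113307933, minus strand: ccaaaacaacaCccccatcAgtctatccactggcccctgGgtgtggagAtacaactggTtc
Ighg1, chr12:113330463-113330523, minus strand: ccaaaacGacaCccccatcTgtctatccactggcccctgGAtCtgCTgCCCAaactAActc
Igkc, chr6:70726435-70726495, plus strand: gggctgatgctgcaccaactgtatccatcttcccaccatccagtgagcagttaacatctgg

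Ighg2b differed from Ighg2c at 5 of these 61 bases, and Ighg1 differed from Ighg2c at 14. Over the whole annotated transcripts, none of the 1826 read-length windows of Ighm and none of the 472 of Igkc occurred in transcripts of another gene. The same was true of the 2608 windows of Igha. Of Ighg2b, 65 of 2617 windows (2.48%) also occurred in Ighg2c or Ighg3, and of Ighg2c, 37 of 1265 (2.92%) also occurred in Ighg2b. The longest identical run between Ighg2b and Ighg2c was 78 bases. Counts of these gamma genes are uncertain to that extent. Of Jchain, 7 of 2427 windows (0.288%) occurred in another gene.

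The heavy chain genes used here lie together on chromosome 12, minus strand, with Ighm at 113418558 to 113422730. Among these genes, Ighm is followed by Ighg1, Ighg2b, Ighg2c and, 158.3 kb away, Igha. Igkc lies on chromosome 6 at 70726435 to 70726966, and Jchain on chromosome 5 at 88519809 to 88527891. Within 250 kb of Ighm the table held Ighg1 and the other heavy chain members, and no other gene. Within 250 kb of Igkc it held the kappa variable segments Igkv3-2 and Igkv3-4, Rpia at 38.8 kb and Eif2ak3 at 117.5 kb. Neither Rpia nor Eif2ak3, a sugar phosphate isomerase and a kinase of the unfolded protein response, passed the test in any comparison.

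Expression is given as normalised counts, in which each value is the number of reads plus 0.5, scaled as CPM to a library size that the authors adjusted. Libraries held 9299156 to 15957106 reads over the listed genes, so 1 read was worth 0.0652 to 0.0922 and a gene with no read had a value of 0.0326 to 0.0461. The listed genes all reached 1 CPM in at least 3 libraries. Gaa, the targeted gene, had 15.07, 15.6 and 16.61 normalised counts in KO_secGAA and 17.78, 14.46 and 14.02 in KO_PBS. It had 296, 128.6 and 264.1 in WT_PBS, which fits the genotype labels of all 9 libraries. Its levels were alike in KO_secGAA and KO_PBS (log2 difference 0.04), so they cannot check the treatment labels of the knockout libraries. In bulk muscle RNA, fewer cells of a type and less RNA per cell cannot be told apart.

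Ighm encodes the mu heavy chain of IgM and had the highest mean level per kb of the heavy chains in every group. It had 316, 127.1 and 60.4 normalised counts in KO_secGAA 1, 2 and 3. It had 14.3, 13.0 and 92.3 in KO_PBS 1, 2 and 3, and 402.2, 141.2 and 212.6 in WT_PBS 1, 2 and 3. All KO_PBS libraries lay below all WT_PBS libraries, and KO_PBS 3 stood well above the other KO_PBS libraries. The KO_secGAA libraries spread over both ranges. The means were 167.8 ± 132.6 in KO_secGAA, 39.9 ± 45.4 in KO_PBS and 252.0 ± 134.9 in WT_PBS (SD, n = 3 each). On the log2 scale of the value plus 0.5, Ighm was 3.12 ± 0.78 (SE) lower in KO_PBS than in WT_PBS, written as a change of -3.12. This difference chose the members, so nothing further is drawn from it. KO_secGAA exceeded KO_PBS by 2.35 ± 0.78 (SE), which did not pass limma's test (adjusted p = 0.138). Without KO_PBS 3, the KO_PBS library with the most Ighm, the same difference was 3.26 and the limma adjusted p was 0.0395, with adjusted p-values up to 0.333 over the other alternatives. Low Ighm in KO_PBS was among the values that chose the members, so nothing is drawn from this change. KO_secGAA differed from WT_PBS by -0.77 ± 0.78 (SE), which did not pass (limma adjusted p = 0.605).

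The gamma chains, the heavy chains of IgG, were distributed differently over the libraries. Ighg2c had 69.2, 137.4 and 1.48 normalised counts in KO_secGAA 1, 2 and 3, followed by 8.51, 0.355 and 24.1 in KO_PBS and 15.5, 3.41 and 3.44 in WT_PBS. The groups overlapped, with KO_secGAA 1 and KO_secGAA 2 above all other libraries. Ighg2b had 20.3, 14.5 and 0.036 normalised counts in KO_secGAA, the last of these from no read. It had 1.40, 0.118 and 30.8 in KO_PBS and 0.103, 0.0351 and 0.703 in WT_PBS, where the 3 libraries held 1, 0 and 9 reads. KO_secGAA 1, KO_secGAA 2 and KO_PBS 3 were the libraries above 10. Ighg2b and Ighg2c did not pass limma's test in KO_secGAA against KO_PBS, with log2 differences of 0.73 ± 1.55 and 2.22 ± 1.58 (SE) and adjusted p-values of 0.845 and 0.497. With 1 library left out, the Ighg2c difference was 0.84 to 4.09. Against WT_PBS, the differences in KO_secGAA were 2.92 ± 1.55 for Ighg2b and 2.09 ± 1.58 for Ighg2c, with limma adjusted p-values of 0.308 and 0.481. In KO_PBS against WT_PBS the fitted log2 differences were 2.19 ± 1.55 for Ighg2b and -0.13 ± 1.58 for Ighg2c. Ighg2b reached 1 CPM in knockout libraries only and was listed through them, so nothing is drawn from its differences from WT_PBS.

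Igha, the alpha heavy chain of IgA, was low and varied by library rather than by group. It had 3.92, 15.9 and 1.33 normalised counts in KO_secGAA, 5.25, 0.433 and 1.06 in KO_PBS and 9.56, 0.316 and 0.111 in WT_PBS. The highest library of each group lay above the lowest of every other group. The log2 differences were 1.33 ± 1.14 (SE) in KO_secGAA against KO_PBS and 1.58 ± 1.14 in KO_secGAA against WT_PBS (limma adjusted p = 0.577 and 0.458). In KO_PBS against WT_PBS the difference was 0.25 ± 1.14.

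Igkc, the constant region of the kappa light chain, had 189.5, 229.6 and 3.64 normalised counts in KO_secGAA 1, 2 and 3. It had 6.29, 4.29 and 76.1 in KO_PBS and 3.33, 1.16 and 0.481 in WT_PBS. The 9 libraries fell into 3 with high values (KO_secGAA 1, KO_secGAA 2 and KO_PBS 3) and 6 with values under 10. Every knockout library lay above every WT_PBS library, though KO_secGAA 3 with 50 reads was only just above WT_PBS 1 with 48. The means were 140.9 ± 120.6 in KO_secGAA, 28.9 ± 40.9 in KO_PBS and 1.66 ± 1.49 in WT_PBS (SD, n = 3 each). KO_secGAA exceeded WT_PBS by 4.94 ± 1.49 (SE) on the log2 scale, which did not pass limma's test (adjusted p = 0.0965). Without KO_secGAA 3 this difference was 6.83 (limma adjusted p = 0.0147), and with DESeq2 on the recovered reads it was 6.43 (adjusted p = 0.000749). Adjusted p-values reached 0.456 with voom. The few Igkc reads of WT_PBS were among the values that chose the members, so these p-values support nothing by themselves. KO_secGAA differed from KO_PBS by 2.06 ± 1.49 (limma adjusted p = 0.505), and by 1.05 to 3.95 when 1 library was left out. KO_PBS differed from WT_PBS by 2.88 ± 1.49, given as a description.

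Jchain encodes the small protein that links IgM and IgA polymers. It had 26.5, 29.1 and 1.41 normalised counts in KO_secGAA, 3.29, 1.14 and 13.6 in KO_PBS and 3.599, 0.527 and 0.703 in WT_PBS. KO_secGAA 1, KO_secGAA 2 and KO_PBS 3 were again the highest libraries, and the groups overlapped. Jchain was 2.74 ± 1.09 (SE) higher on the log2 scale in KO_secGAA than in WT_PBS without passing limma's test (adjusted p = 0.184). Without KO_secGAA 3 the difference was 4.04 and passed (adjusted p = 0.0379), and adjusted p-values reached 0.432 with voom. KO_secGAA against KO_PBS and KO_PBS against WT_PBS each gave 1.37 ± 1.09, the KO_secGAA comparison with a limma adjusted p of 0.546 and a range of 0.65 to 2.67 when 1 library was left out.

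**Figure D1:**
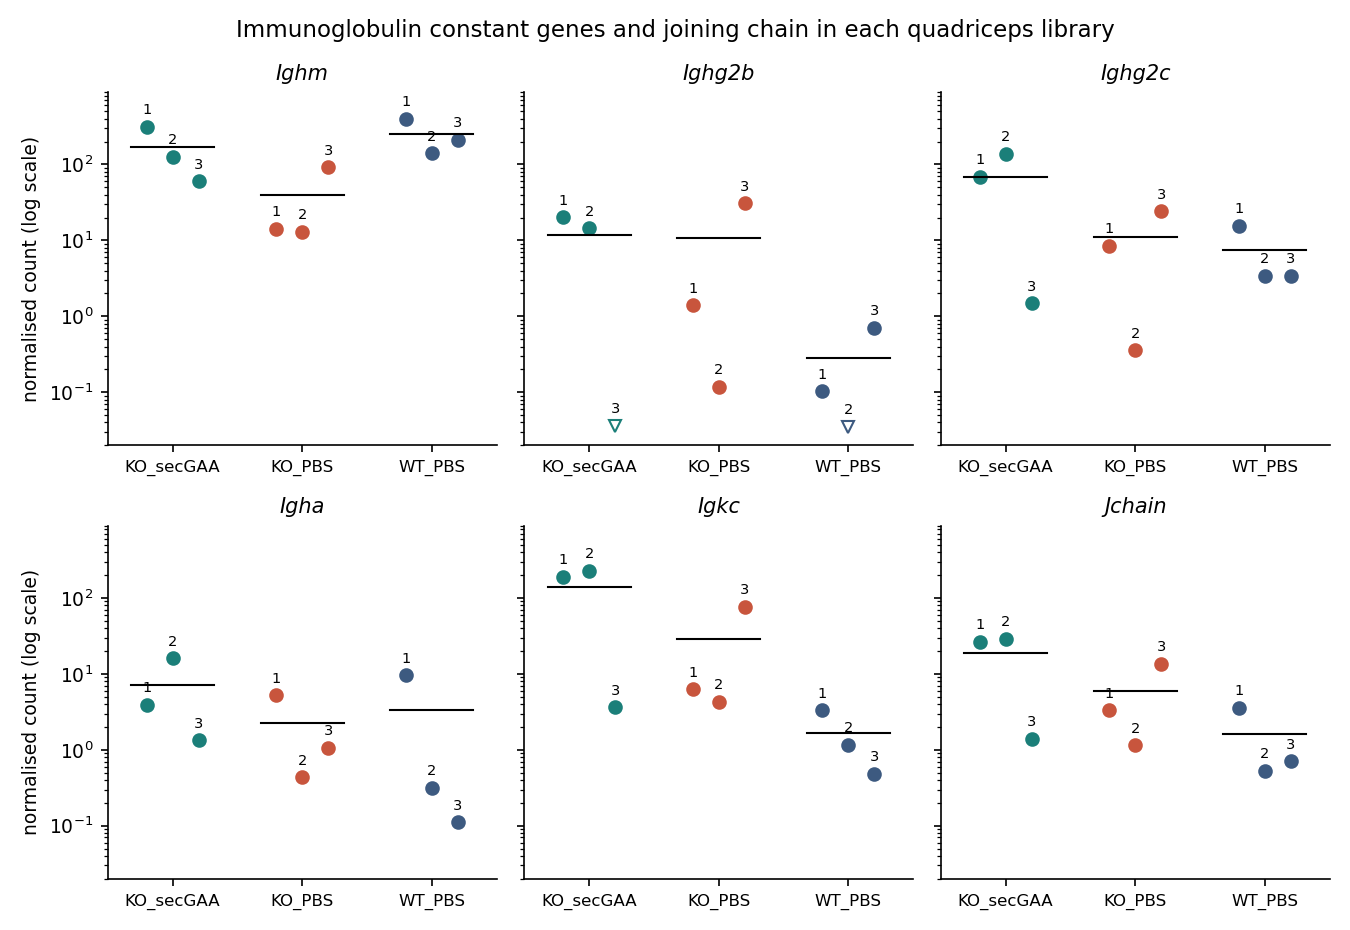
Normalised counts of the 6 listed members (log axis) in each library, numbered within its group, with the group mean as a line and open triangles for no read. Igkc and Jchain were highest in KO_secGAA 1, KO_secGAA 2 and KO_PBS 3, while Ighm was highest in WT_PBS 1 at 402.2.

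Of the 6 members, 1 passed limma's test in KO_PBS against WT_PBS, where 21.9% of the 13089 genes tested passed. That member was Ighm, on whose difference the members were chosen, and nothing is read from the count. For the same comparison edgeR called 0 members and DESeq2 called 2, Igkc and Ighm. The values of 2 members, Ighm and Igkc, did not overlap between KO_PBS and WT_PBS, against 39.7% of all genes tested. Ighm and Igkc in these groups were the values that chose the members, so nothing is read from these calls or this separation. In KO_secGAA against KO_PBS, limma called 0 of the 6 members, against 3.67% of all genes. An unadjusted p under 0.05 was found for 1 member, Ighm, and edgeR and DESeq2 also called 0. In KO_secGAA against WT_PBS, limma called 0 of 6, against 3.72% of all genes, with an unadjusted p under 0.05 for 2 members, Igkc and Jchain. For that comparison edgeR called 0 and DESeq2 called 1, Igkc. Non-overlapping values were found for 0 members in KO_secGAA against KO_PBS, where 24% of all genes did not overlap. They were found for 1 member, Igkc, in KO_secGAA against WT_PBS, where 26.9% of all genes did not overlap. The median log2 difference of the 6 members was 1.72 in KO_secGAA against KO_PBS and 2.42 in KO_secGAA against WT_PBS, beside medians of 0.000328 and 0.00465 over all genes tested. Low Ighm in KO_PBS and few Igkc reads in WT_PBS were among the values that chose the members, so nothing is drawn from these medians. These comparisons share the KO_secGAA libraries, and each shares its other group with KO_PBS against WT_PBS.

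**Figure D2:**
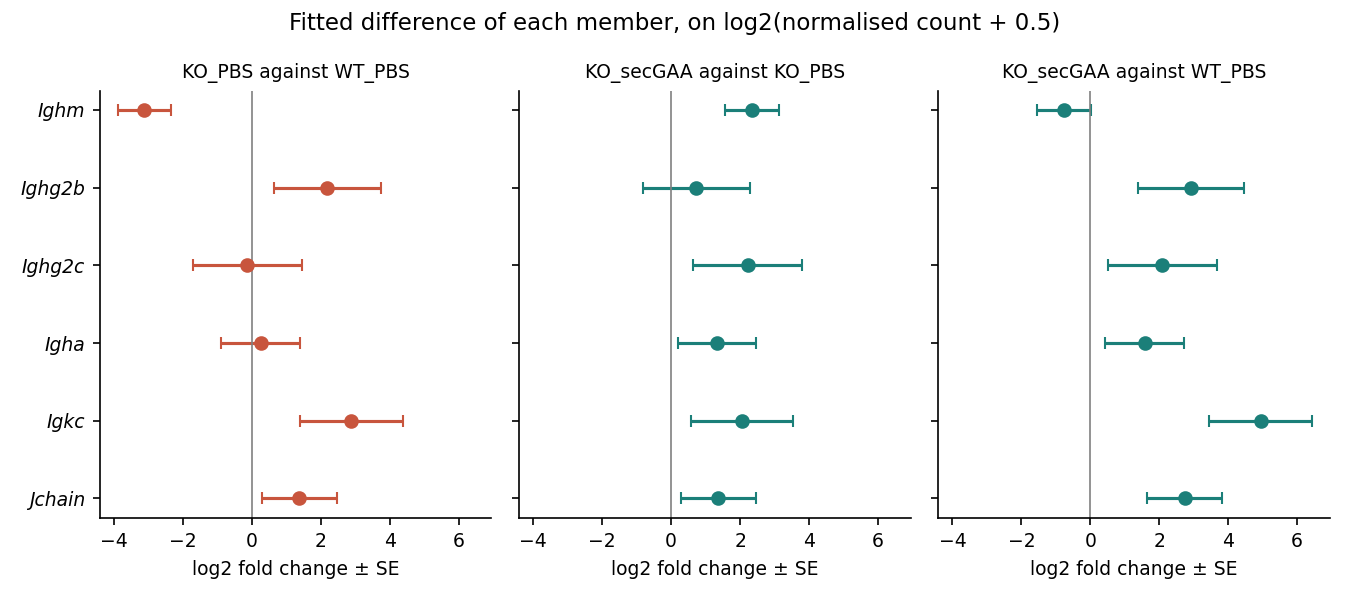
Fitted log2 difference of each listed member with its standard error, on log2 of the normalised count plus 0.5, in the 3 comparisons. Ighm lay at -3.12 in KO_PBS against WT_PBS, and the largest positive difference was that of Igkc in KO_secGAA against WT_PBS, 4.94.

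Levels of different genes were compared per kb of annotated exon, using union exon lengths of 1886 bases for Ighm and 532 bases for Igkc. In KO_secGAA, Igkc averaged 264.9 ± 226.6 normalised counts per kb, Ighm 89.0 ± 70.3 and Ighg2c 52.3 ± 51.2 (SD, n = 3). In KO_PBS, Igkc averaged 54.3 ± 76.8 per kb, Ighm 21.1 ± 24.1 and Ighg2c 8.30 ± 9.11. In WT_PBS, Ighm averaged 133.6 ± 71.5 per kb, Ighg2c 5.63 ± 5.27 and Igkc 3.11 ± 2.79. In the knockout groups these neighbours in the order differed by less than their spread. In each WT_PBS library the level of Ighm per kb, lowest at 74.9 in WT_PBS 2, was above the levels of the other members, of which the highest was 11.7 for Ighg2c in WT_PBS 1. Jchain averaged 7.54, 2.38 and 0.640 per kb, Ighg2b 4.33, 4.02 and 0.105, and Igha 2.65, 0.842 and 1.25, in KO_secGAA, KO_PBS and WT_PBS.

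The ratio of heavy to light chain was taken per library as the summed normalised counts of the 4 listed heavy chains over Igkc. The lambda variable segment Iglv1, not a member, held 33 reads in WT_PBS 1 beside 48 of Igkc, and 0 reads in WT_PBS 2 and WT_PBS 3. The ratio counts kappa only and leaves out lambda chains. It was 2.16, 1.28 and 17.4 in KO_secGAA 1, 2 and 3, 4.68, 3.23 and 1.95 in KO_PBS 1, 2 and 3, and 129, 125 and 451 in WT_PBS 1, 2 and 3. Every WT_PBS library was above every knockout library, and KO_secGAA 3 was the highest of the knockout libraries. On the log2 scale, with 0.5 added to each sum, the ratio averaged 1.80 ± 1.89 in KO_secGAA, 1.56 ± 0.59 in KO_PBS and 7.02 ± 0.69 in WT_PBS (SD, n = 3 each). KO_secGAA minus KO_PBS was 0.24 (exact two-sided permutation p = 0.9). Without KO_secGAA 3 that difference was -0.83, and without KO_PBS 3 it was -0.06. With 3 libraries against 3 the smallest p is 0.1, so the design cannot reach 0.05. Low Ighm in KO_PBS was also among the values that chose the members, so nothing is drawn from the permutation p of 0.9. KO_secGAA minus WT_PBS was -5.21 and KO_PBS minus WT_PBS was -5.46, both given without a p because the WT_PBS ratio was among the values that chose the members. Per kb of exon, the heavy to light ratio was 0.423 to 4.92 in KO_secGAA, 0.552 to 1.39 in KO_PBS and 35.6 to 128 in WT_PBS. On this scale too, the WT_PBS libraries lay above all knockout libraries.

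**Figure D3:**
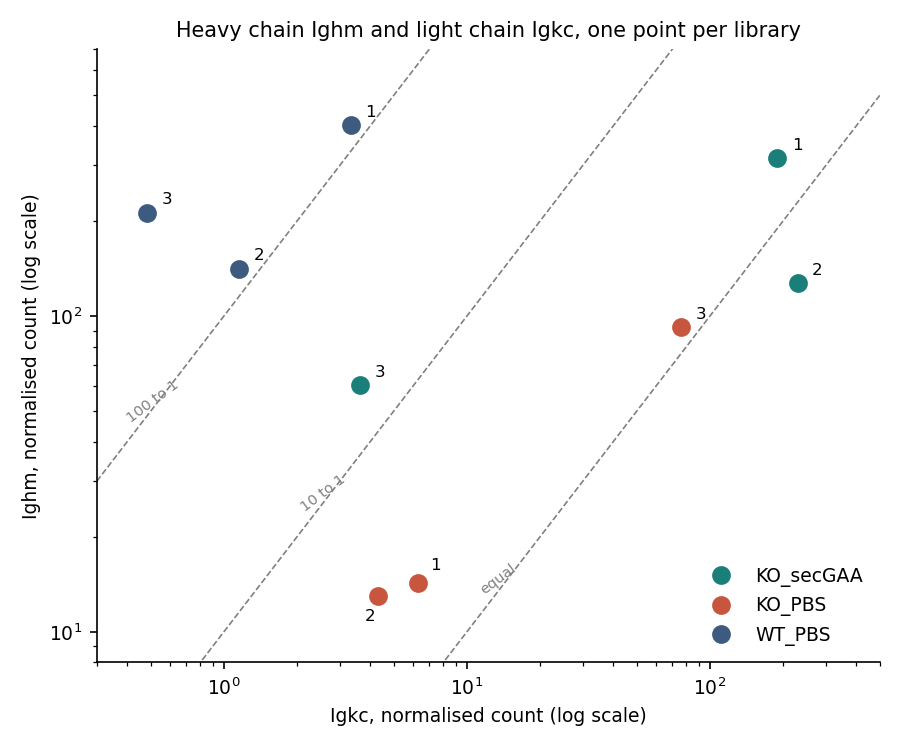
Ighm against Igkc in normalised counts, both on log axes, with a numbered point for each library and dashed lines for equal values, 10 to 1 and 100 to 1. The 3 WT_PBS libraries lie above the line of 100 to 1, and KO_secGAA 1, KO_secGAA 2 and KO_PBS 3 lie near the line of equal values.

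The reads behind these ratios were 3428, 1453 and 838 for Ighm and 2056, 2626 and 50 for Igkc in KO_secGAA 1, 2 and 3. They were 219, 164 and 1003 for Ighm and 96, 54 and 827 for Igkc in KO_PBS, and 5866, 2009 and 2871 for Ighm and 48, 16 and 6 for Igkc in WT_PBS. The low light chain share of WT_PBS was thus measured beside 2009 to 5866 Ighm reads. Igkc made up 37.5% (95% exact binomial interval 36.2 to 38.8), 64.4% (62.9 to 65.8) and 5.63% (4.21 to 7.36) of the reads of Ighm and Igkc in KO_secGAA. It made up 30.5% (25.4 to 35.9), 24.8% (19.2 to 31.1) and 45.2% (42.9 to 47.5) in KO_PBS. In WT_PBS the share was 0.812% (0.599 to 1.07), 0.79% (0.452 to 1.28) and 0.209% (0.0766 to 0.453). These intervals cover counting error only, and none of the WT_PBS intervals met an interval of a knockout library. The small Igkc share of WT_PBS was among the values that chose the members, so nothing is drawn from that separation. KO_secGAA 3 had the lowest share of the knockout libraries.

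Gamma and alpha chains together made up 23.4%, 64.1% and 4.34% of the heavy chain reads of Ighm, Ighg1, Ighg2b, Ighg2c and Igha in KO_secGAA 1, 2 and 3. The share was 51.8%, 9.89% and 46.3% in KO_PBS 1, 2 and 3, and 5.87%, 2.52% and 1.91% in WT_PBS 1, 2 and 3. Mu was thus the main class in all WT_PBS libraries, at 94.1% to 98.1% of heavy chain reads. KO_secGAA 3 and KO_PBS 2, at 95.7% and 90.1% mu, were close to them, and KO_secGAA 2 had the lowest share of mu, 35.9%. KO_PBS 1 had the largest share of alpha, 17.6%, on 454 heavy chain reads in all.

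**Figure D4:**
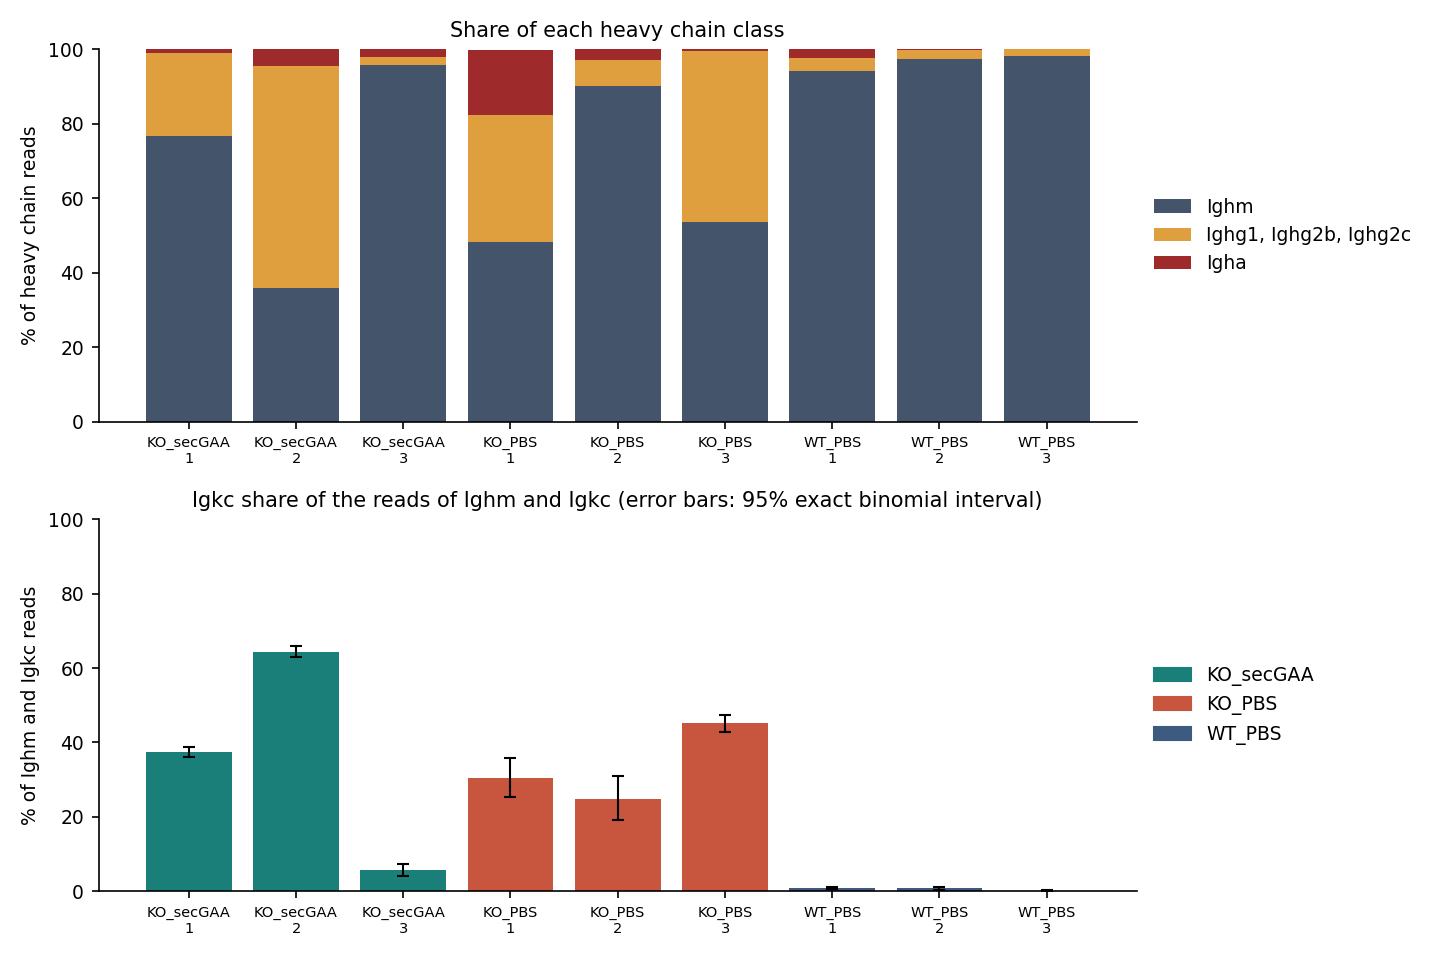
Upper panel, the percent of heavy chain reads from Ighm, from the gamma genes and from Igha in each library; lower panel, the percent of Ighm and Igkc reads that came from Igkc, with 95% exact binomial intervals. Igkc took 5.63% to 64.4% in the knockout libraries and 0.209% to 0.812% in WT_PBS.

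Beside the members, the table listed 7 other immunoglobulin genes. These were the gamma 1 constant gene Ighg1, 5 kappa variable segments and the lambda variable segment Iglv1. Ighg1 had 3.46, 58.8 and 0.036 normalised counts in KO_secGAA 1, 2 and 3 and 0.294, 0.67 and 23.7 in KO_PBS 1, 2 and 3. It had no read in the 3 WT_PBS libraries and none in KO_secGAA 3. Of the 7 genes, 6 reached 1 CPM in exactly 3 libraries, and these were KO_secGAA 1, KO_secGAA 2 and KO_PBS 3 each time. Since the table required 3 such libraries, these genes were listed through those libraries and had to be high there, so their shared pattern supports nothing. No member was listed on exactly 3 libraries. The member Ighg2b reached 1 CPM in 4 libraries, 2 of KO_secGAA, 2 of KO_PBS and 0 of WT_PBS, so it too was listed through knockout libraries only. Igkv1-117 and Igkv10-96 had no read in any of the other 6 libraries, while Iglv1 had its highest value, 2.30, in WT_PBS 1. From 8.71% to 41.9% of the read-length windows of the variable segments also occurred in another gene, so their assignment to single segments is uncertain.

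**Figure D5:**
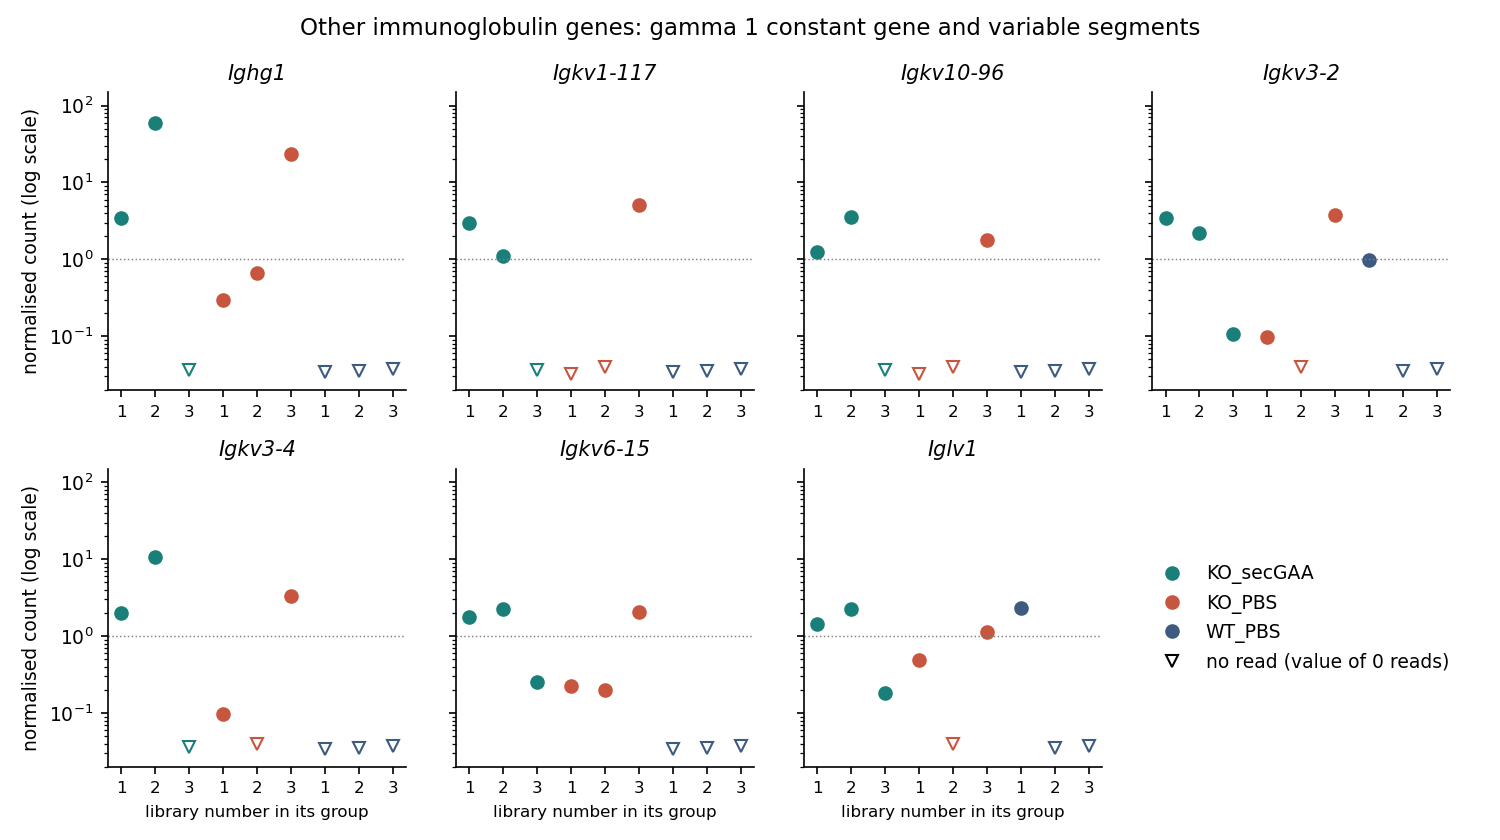
Normalised counts (log axis) of the 7 other immunoglobulin genes in each library, numbered within its group, with open triangles for no read and a dotted line at 1. In 6 of the 7 panels the points of KO_secGAA 1, KO_secGAA 2 and KO_PBS 3 are those above the line.

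The genes whose pattern was most like that of Igkc and of Ighm were found by Pearson's r of log2 of the value plus 0.5 over the 9 libraries, among 12738 other genes with a mean of 1 or more. The nearest to Igkc were Jchain (r = 0.972), Adar (0.970), Sp140 (0.961), Fam46c (0.949) and Gm13841 (0.949). Adar is an RNA editing enzyme induced by interferon, Sp140 a nuclear protein of immune cells and Fam46c a poly(A) polymerase active in plasma cells. Sp140 had 2.72, 3.54 and 0.973 normalised counts in KO_secGAA, 1.21, 1.54 and 2.53 in KO_PBS and 1.27, 1.02 and 0.999 in WT_PBS. Igkc had r = 0.906 with Ighg2b, 0.825 with Ighg2c and 0.582 with Igha, but 0.150 with Ighm. Because the libraries fall into 3 high and 6 low values for Igkc, these r values mainly record that split. The libraries also share depth and scaling. The nearest to Ighm were Tti1 (0.969), Mr1 (0.948), Tcf20 (0.942), Phf21a (0.936) and Umad1 (0.935), none of which is an immunoglobulin gene. Their range was narrow: Tti1, a partner of PI3K-related kinases, had 19.9, 18.0 and 16.0 normalised counts in KO_secGAA, 11.6, 12.7 and 16.2 in KO_PBS and 21.6, 20.3 and 19.2 in WT_PBS.

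Gm13841, a predicted gene, had 3.46 and 3.80 normalised counts in KO_secGAA 1 and KO_secGAA 2 and 3.63 in KO_PBS 3, and no read in the other 6 libraries. Gm8210 had the same reads in every library, so the counts of Gm13841 and Gm8210 cannot be told apart. These and 4 kappa variable segments were the 6 genes of the table that reached 1 CPM in those 3 libraries with at most 3 reads in each of the other 6. Gm8210 and this count were chosen after their values were seen.

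Genes of B cells and plasma cells were read from lists. Of 23 B cell genes, 3 were among the rows used here, the inhibitory receptor Cd72, the tetraspanin Cd37 and the adaptor Blnk, and the others are not analysed here. Which cells transcribed these 3 genes was not tested. None of the 3 passed in any comparison, and their median log2 difference was 0.17 in KO_secGAA against KO_PBS, 0.81 in KO_secGAA against WT_PBS and 0.53 in KO_PBS against WT_PBS. Their summed normalised counts were 28.3, 15.9 and 5.80 in KO_secGAA 1, 2 and 3, 8.78, 16.4 and 13.0 in KO_PBS and 4.56, 11.1 and 9.29 in WT_PBS. WT_PBS 1, with the highest Ighm, had the lowest of these sums, through its low Cd72, while its Cd37 was the highest of its group. Cd72 had 18.7, 10.01 and 3.57 normalised counts in KO_secGAA, 5.51, 12.02 and 7.13 in KO_PBS and 1.68, 7.83 and 6.70 in WT_PBS. Cd37 had 6.50, 3.89 and 0.973 in KO_secGAA, 1.86, 2.25 and 3.36 in KO_PBS and 1.89, 1.37 and 1.37 in WT_PBS. Unlike Cd72, it was highest in the 3 libraries with high Igkc. Blnk had 3.18, 2.05 and 1.26 in KO_secGAA, 1.40, 2.09 and 2.53 in KO_PBS and 0.994, 1.86 and 1.22 in WT_PBS, with KO_secGAA 1 and KO_PBS 3 the highest.

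Of 16 plasma cell genes, 9 were listed. Xbp1, the transcription factor of the secretory pathway that muscle also expresses, rose in KO_PBS against WT_PBS by 0.91 on the log2 scale (limma adjusted p = 0.0012), and the other 8 did not pass. Of all genes tested, 21.9% passed in that comparison. Xbp1 had 85.6, 81.5 and 79.5 normalised counts in KO_secGAA, 90.5, 105.6 and 102.0 in KO_PBS and 65.2, 45.1 and 49.0 in WT_PBS, an order that did not follow Igkc. It also rose in KO_secGAA against WT_PBS by 0.64 (limma adjusted p = 0.0288), a call that ended in 5 of 18 alternatives, 4 of them leaving out KO_secGAA 1, KO_secGAA 2, WT_PBS 2 or WT_PBS 3 (adjusted p up to 0.118). None of the 9 passed in KO_secGAA against KO_PBS. The median log2 difference of the 9 was -0.13 between KO_secGAA and KO_PBS, 0.08 between KO_secGAA and WT_PBS and 0.28 between KO_PBS and WT_PBS. Mzb1, a chaperone of antibody assembly in the endoplasmic reticulum, had 2.63, 3.02 and 1.04 normalised counts in KO_secGAA, 1.60, 0.906 and 1.79 in KO_PBS and 0.857, 0.386 and 0.555 in WT_PBS. The 3 KO_secGAA values were above the 3 WT_PBS values, with a log2 difference of 1.25 that did not pass (limma adjusted p = 0.0819). So were the 3 KO_PBS values, with a log2 difference of 0.80 that did not pass (limma adjusted p = 0.134). Of all genes tested, 26.9% did not overlap between KO_secGAA and WT_PBS, and 39.7% between KO_PBS and WT_PBS. Mzb1 was named after its values were seen. Of the plasma cell genes of highest mean beside Xbp1, the elongation factor Ell2 and the disulfide isomerase Txndc5 had log2 differences of 0.08 and -0.28 in KO_secGAA against WT_PBS and of 0.50 and -0.29 in KO_secGAA against KO_PBS, and neither passed. The summed level of the 9 genes was 161.2 to 181.3 in KO_secGAA, 185.6 to 187.9 in KO_PBS and 124.9 to 164.8 in WT_PBS, most of it Xbp1.

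Receptors and transporters that bind antibody were listed for 7 of 14 genes. In KO_PBS against WT_PBS, 2 rose, the low affinity IgG receptors Fcgr3 by 1.01 and Fcgr2b by 0.82 on the log2 scale (limma adjusted p = 0.0143 and 0.0242). Of all genes tested, 21.9% passed in that comparison, so nothing is read from the count of 2. Fcgr3 had 3.55, 4.68 and 3.57 normalised counts in KO_secGAA, 5.84, 7.60 and 5.84 in KO_PBS and 4.15, 2.99 and 1.96 in WT_PBS. The Fcgr2b call ended without KO_PBS 1, KO_PBS 2, WT_PBS 2 or WT_PBS 3 (adjusted p up to 0.092), and the Fcgr3 call without KO_PBS 2 (adjusted p = 0.0593). None of the 7 passed in either KO_secGAA comparison, where their median log2 difference was -0.20 against KO_PBS and 0.20 against WT_PBS. It was 0.58 between KO_PBS and WT_PBS. Fcgrt, the neonatal Fc receptor that recycles IgG, had a log2 difference of -0.06 between KO_PBS and WT_PBS, and KO_secGAA differed from KO_PBS by -0.07 and from WT_PBS by -0.13.

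Markers of other cells were read in the same way. The 19 macrophage genes, all listed, summed to 291.8, 358.1 and 174.8 normalised counts in KO_secGAA 1, 2 and 3, 368.2, 502.7 and 428.2 in KO_PBS and 194.1, 201.7 and 124.4 in WT_PBS. KO_PBS 2, low in Igkc, had the highest of these sums. In KO_PBS against WT_PBS, 6 of the 19 rose and 0 fell, with a median log2 difference of 0.98. Of all 13089 genes tested in that comparison, 1430 rose and 1437 fell, together 21.9%. In KO_secGAA against KO_PBS, 2 fell, the galectin Lgals3 and the lysosomal protein Cd68. In KO_secGAA against WT_PBS, Cd68 and the pore-forming Mpeg1 rose. Of all genes tested, 3.67% passed in KO_secGAA against KO_PBS and 3.72% in KO_secGAA against WT_PBS. The Cd68 and Mpeg1 calls of the KO_secGAA comparisons were near the threshold (limma adjusted p = 0.0373 to 0.0469) and ended when any of several single libraries was left out (adjusted p up to 0.159). The 4 listed of 21 T and NK cell genes summed to 10.9 to 13.5 in KO_secGAA, 6.98 to 12.7 in KO_PBS and 11.4 to 20.1 in WT_PBS. In KO_PBS against WT_PBS, the chemokine gene Ccl5 rose, and the T cell receptor subunit Cd3e and the surface protein Thy1 fell, beside 21.9% of all genes tested that passed. None of the 4 passed in KO_secGAA against KO_PBS, and the adhesion receptor Cd2 rose in KO_secGAA against WT_PBS. Cd2 had 1.428, 1.705 and 1.333 normalised counts in KO_secGAA, 0.6198, 0.8274 and 0.9653 in KO_PBS and 0.3085, 0.03513 and 0.4812 in WT_PBS. It reached the value of 1 needed for the test only in the KO_secGAA libraries, so nothing is drawn from its call. The calls of Cd3e, Thy1 and Cd2 ended when any of several single libraries was left out (limma adjusted p up to 0.15, 0.0907 and 0.121), and that of Ccl5 held in the 17 alternatives that gave it a value.

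The 5 listed of 8 erythroid genes, which report blood in a sample, summed to 88.2, 448.3 and 146 normalised counts in KO_secGAA 1, 2 and 3, 130.8, 33.0 and 176 in KO_PBS and 340.3, 170.8 and 452 in WT_PBS. None passed in any comparison, with a median log2 difference of -1.75 between KO_PBS and WT_PBS. KO_secGAA 1 and KO_secGAA 2, both high in Igkc, had the lowest and the highest sum of their group. Within KO_PBS, Ighm and the erythroid sum were both highest in KO_PBS 3 and lowest in KO_PBS 2. Within WT_PBS both were lowest in WT_PBS 2. Their highest libraries differed in WT_PBS and in KO_secGAA. The 8 fat cell genes, all listed, summed to 610.2 to 1171 in KO_secGAA, 370.8 to 700.1 in KO_PBS and 601.9 to 1824 in WT_PBS. The highest sum was that of WT_PBS 1, which also had the highest Ighm and Igha of its group. Among the fat cell genes, the leptin gene Lep alone passed, by 3.39 on the log2 scale in KO_secGAA against KO_PBS (limma adjusted p = 0.0181). In that comparison 3.67% of all genes tested passed. The Lep call ended without KO_secGAA 2 (limma adjusted p = 0.0678) and with voom (4.34, adjusted p = 0.0944). Of 12 lymphoid stroma genes, 8 were listed, and none passed in any comparison. The part of blood, fat or other cells in the immunoglobulin levels was not tested.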

How the data were processed

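Polyadenylated RNA of 9 quadriceps libraries was sequenced as single-end reads of 61 bases, per the labels' protocols. The authors deposited a table of normalised counts, a scaled signal of gene reads. GRCm38 and the tools edgeR, limma, RSEM, cutadapt and CASAVA are named in the submitters' processing notes, and strandedness is not given in the sources used here. Every one of the 118044 deposited values was an odd multiple of its column's smallest value (relative tolerance 1e-06), so 100% came out as whole reads plus 0.5. Scaling factors computed with TMM on those reads matched the table.

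A gene entered with a value of 1 in 3 or more libraries (13089 genes, with 27 left out, and all 6 members passed). They were tested with limma 3.58.1 in R 4.3.3 on log2(value + 0.5), with 3 group means, a trended prior, 6 residual degrees of freedom and Benjamini-Hochberg adjusted p under 0.05. The method was checked on simulated data. edgeR 4.0.16, DESeq2 1.42.0 and voom on the recovered reads were alternatives. The fold changes understate low genes. Named genes were the members, other immunoglobulin genes, the 4 passing genes of smallest p and the 3 of highest mean per list, the 5 most alike genes, and neighbours within 250 kb. Mzb1, Cxcl13 and Gm8210 were named outside this rule, after their values were seen. Members and lists were chosen with earlier results of these data known. Sequences and lengths came from GENCODE M21.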

Additional observations from a re-analysis of the deposited data

How the results depend on the processing

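Over 18 alternatives and 3 comparisons, the members' log2 differences were recomputed 324 times. Direction and side of the threshold were kept in 301. Of the rest, 5 lost a call, all of Ighm in KO_PBS against WT_PBS, 5 gained one (Igkc 3 times, Ighm and Jchain once each) and 13 changed sign. Calls in KO_PBS against WT_PBS rest on values that chose the members, so nothing is drawn from them. Signs changed for Ighg2c in KO_PBS against WT_PBS (0.00 with a pseudocount of 1, 0.14 without scaling factors, 0.53 with edgeR, 0.55 with DESeq2, and -1.18 to 1.25 when 1 library was left out). They changed for Igha in the same comparison (-0.53 with edgeR, -0.59 with DESeq2, and -0.51 to 1.52 with 1 library left out) and for Ighg2b in KO_secGAA against KO_PBS (-0.49 to 2.41 with 1 library left out). The cause was not tested. The log2 heavy to light ratio differed by -0.83 to 0.97 between KO_secGAA and KO_PBS when 1 library was left out, by -6.28 to -4.49 between KO_secGAA and WT_PBS, and by -5.75 to -5.07 between KO_PBS and WT_PBS.

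Without scaling factors the median of all genes moved to 0.305, -0.144 and 0.155, and the genes called were 4984 in KO_PBS against WT_PBS (89.6% higher, against 49.9% of 2867), 959 in KO_secGAA against KO_PBS (10.6% higher, against 37.2% of 481) and 1007 in KO_secGAA against WT_PBS (86.2% higher, against 49.1% of 487). DESeq2 called 798 and 1022 in the KO_secGAA comparisons, and a fit of only the groups compared called 316 in KO_secGAA against KO_PBS. Leaving out 1 library gave 1744 to 2847, 159 to 568 and 94 to 503 genes, lowest without WT_PBS 3, KO_secGAA 2 and WT_PBS 3. No paired analysis was possible because the labels give the libraries no replicate numbers shared between groups. With 3 libraries a group and Igkc at 3.64 to 229.6 within KO_secGAA, its log2 difference of 4.94 from WT_PBS did not reach limma's threshold. DESeq2 called the same comparison, with its own estimate of 6.43. Low Igkc in WT_PBS was among the values that chose the members, so nothing is drawn from that call.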

Other observations

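Cxcl13, the chemokine that draws B cells into follicles and a gene of the lymphoid stroma list, had 5.67, 2.32 and 0.541 normalised counts in KO_secGAA 1, 2 and 3, 0.946, 0.355 and 2.07 in KO_PBS 1, 2 and 3 and 0.514, 0.457 and 0.925 in WT_PBS 1, 2 and 3. KO_secGAA 1, KO_secGAA 2 and KO_PBS 3, the libraries with high Igkc, had its highest values. Cxcl13 was named for this after its values were seen, and Ccl21a, Cxcl12 and Lyve1 of the same list did not share the pattern. Ccl21a and Cxcl12 were highest in WT_PBS 2, at 13.4 and 50.6, and Lyve1 was lowest in KO_PBS 3, at 2.80. The log2 differences of Cxcl13 did not pass limma's test, with 0.84 in KO_secGAA against KO_PBS and 1.24 in KO_secGAA against WT_PBS (adjusted p = 0.5 and 0.267). Of the 329 genes that reached 1 CPM in exactly 3 libraries, 26 did so in KO_secGAA 1, KO_secGAA 2 and KO_PBS 3, 6 of them immunoglobulin genes. For comparison, 36 did so in the KO_PBS libraries and 19 in the WT_PBS libraries. KO_secGAA 1, KO_secGAA 2 and KO_PBS 3 were picked for their high Igkc. The 6 immunoglobulin genes were listed only through those libraries, so nothing is drawn from these counts.

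The ratio of Jchain to Igkc, in normalised counts, was 0.14, 0.127 and 0.386 in KO_secGAA, 0.523, 0.266 and 0.178 in KO_PBS and 1.08, 0.455 and 1.46 in WT_PBS. It was lowest in the 3 libraries with high Igkc, but Igkc is its denominator, so nothing is drawn from that order. In WT_PBS 2 and WT_PBS 3 the ratio rested on 7 and 9 Jchain reads beside 16 and 6 Igkc reads.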
